A study of Mus musculus with 11 samples.

Results

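The 10 genes Cdkn1a, Cdkn1b, Cdkn2a, Cdkn2b, Cdk4, Cdk6, Ccnd1, Trp53, Rb1 and Mdm2, which govern entry into the cell cycle, were examined in the chromatin accessibility data (ATAC-seq) of an immortalised mouse cell line. Every accessible region of the deposited list that overlapped a gene, from 20 kb upstream of its start to its end in the GENCODE M21 annotation of mm10, was taken as a region of that gene. The search found 42 regions among the 94963 in the list, spread over 8 of the 10 genes. Cdkn2a and Cdkn2b had 0 regions each. The regions at the other 8 genes ranged from 200 bp in an intron of Rb1 to 3573 bp at the starts of Cdk6.

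The cells were MPC2, 1 clone of conditionally immortalised mouse mesenchymal progenitors, a line that divides at a lower temperature and matures into osteocyte-like cells at a higher one in osteogenic medium. Undifferentiated cells (MSC) and cells differentiated for 3 weeks (osteocytes) received vehicle or 50 µM FG-4592, an inhibitor of the prolyl hydroxylases that mark hypoxia-inducible factors for destruction, for 48 h. The groups held 3 MSC vehicle, 3 MSC FG-4592, 2 osteocyte vehicle and 3 osteocyte FG-4592 samples, 11 in all, and every one came from the same clone. The agent that immortalised the line is not given in the sources used here.

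Each region carried 1 value, its accessibility level in log2 CPM (read counts scaled to a common library size). It was read as an average over the samples, which the list itself does not state. The list holds no value per sample, so neither differentiation nor FG-4592 could be compared from it, and no replicate error or read depth stands behind a level. The levels below are descriptions of the pooled cells, set beside all regions or all protein-coding genes of the same list, with no test.

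The 10 genes belong to a pair of connected tumour suppressor circuits. Cyclin D1 (Ccnd1) activates the kinases Cdk4 and Cdk6, which phosphorylate the retinoblastoma protein (Rb1) and so release E2F factors that drive DNA replication. Cdkn2a encodes p16INK4a and, from a separate first exon, p19ARF, and its neighbour Cdkn2b encodes p15INK4b. The INK4 proteins inhibit Cdk4 and Cdk6, and p19ARF blocks Mdm2, the ligase that marks p53 (Trp53) for degradation. p53 in turn switches on Cdkn1a (p21), which with Cdkn1b (p27) inhibits cyclin-dependent kinases. Cultured mouse cells that escape senescence commonly lose the Cdkn2a products or p53, and many conditionally immortalised lines carry a temperature-sensitive large T antigen that binds p53 and Rb.

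The labelled cell type was compared with its markers first. An annotated start lay within 1000 bp of a region (a start region) in 6 of 7 mesenchymal progenitor markers, with levels up to 6.14 log2 CPM at Pdgfra, and Thy1 had none. Among 9 osteoblast and osteocyte markers 6 had one, led by Runx2 at 5.05 log2 CPM, whereas Phex, Sost and Pdpn had none. Over all protein-coding genes 64.1% had a start region, so the osteoblast and osteocyte count lay near the background and does not by itself mark the cell type. Among markers of other cells, the blood genes Ptprc and Cd3e had none, 1 of 2 endothelial genes had a weak one (Pecam1 at 1.89 log2 CPM), and 0 of 2 epithelial genes had one. MSC and osteocytes cannot be told apart in the pooled list.

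The sequences just upstream of the gene starts show what kind of promoter each gene has. They are shown for Cdkn1a, whose RefSeq starts divided into one inside and one outside a region, for Cdkn2a and Cdkn2b, which had no region, and for Cdk4 and Mdm2, whose starts were covered. All are 150 bases from RefSeq (build GRCm38.p6, equal to mm10), written 5′ to 3′ on the strand of the gene and containing no annotated untranslated region. RefSeq's promoter table held entries for 8 of the 10 genes, and Ccnd1 and Rb1 were not among them. In the first sequence the capitals mark p53 half-sites, in the second Sp1 boxes (GGGCGG or its complement), in the third E-boxes (CACGTG), and in the last 4 every CpG.
Cdkn1a outer start, chr17:29090829-29090978, plus strand: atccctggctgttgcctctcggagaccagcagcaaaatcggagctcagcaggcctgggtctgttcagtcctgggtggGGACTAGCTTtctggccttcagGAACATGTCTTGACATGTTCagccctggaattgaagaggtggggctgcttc
Cdkn1a inner start, chr17:29093619-29093768, plus strand: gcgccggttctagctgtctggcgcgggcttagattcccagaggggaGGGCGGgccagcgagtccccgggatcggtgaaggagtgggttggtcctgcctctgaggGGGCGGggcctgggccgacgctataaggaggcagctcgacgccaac
Cdk4, chr10:127063384-127063533, plus strand: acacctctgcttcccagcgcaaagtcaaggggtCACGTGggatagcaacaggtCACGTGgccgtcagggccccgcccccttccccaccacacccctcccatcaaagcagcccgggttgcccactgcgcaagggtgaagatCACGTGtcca
Cdkn2a, p19ARF start, chr4:89294654-89294803, minus strand: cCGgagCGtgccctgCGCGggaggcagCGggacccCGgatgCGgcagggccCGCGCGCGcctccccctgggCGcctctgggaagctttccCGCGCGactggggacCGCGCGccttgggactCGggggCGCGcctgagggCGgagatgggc
Cdkn2a, p16INK4a start, chr4:89282193-89282342, minus strand: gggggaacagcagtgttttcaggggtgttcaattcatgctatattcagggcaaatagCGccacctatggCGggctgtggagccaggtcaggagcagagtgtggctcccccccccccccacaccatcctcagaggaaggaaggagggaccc
Cdkn2b, chr4:89311040-89311189, minus strand: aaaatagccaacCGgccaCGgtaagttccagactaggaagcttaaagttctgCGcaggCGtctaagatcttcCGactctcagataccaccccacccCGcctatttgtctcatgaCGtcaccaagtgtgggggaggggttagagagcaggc
Mdm2, chr10:117710759-117710908, minus strand: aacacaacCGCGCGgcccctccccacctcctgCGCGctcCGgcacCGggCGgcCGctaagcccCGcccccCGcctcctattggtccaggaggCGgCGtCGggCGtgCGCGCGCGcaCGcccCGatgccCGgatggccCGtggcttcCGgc

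Of the 10 genes, 8 had a start region, against 64.1% of 21938 protein-coding genes. Since 8 of the 10 genes start in CpG-rich sequence, the closer comparison is with the 8406 coding genes whose start is CpG-rich, taken as at least 55% G+C and an observed to expected CpG ratio of at least 0.6 within 500 bp of the start. Of these, 91.7% had a start region. The 8 members with a start region were not the same 8 as those with a CpG-rich start. Cdkn2a and Cdkn2b had a CpG-rich start and no start region. Cdkn1a and Trp53 had a start region but no CpG-rich sequence at their outermost start. Any region between 20 kb upstream and the gene end was present at 79.5% of coding genes. The 2 genes without one were neighbours on chromosome 4, and all others had between 2 and 10.

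The strongest start regions of 7 of the 8 genes lay above the median of all coding genes. The strongest start region of a coding gene had a median level of 5.03 log2 CPM over 14058 genes, with quartiles of 3.84 and 5.75. Cdkn1a reached 6.64, higher than 95.7% of these genes. Cdk4 (6.03), Cdk6 (6.02), Cdkn1b (5.90) and Mdm2 (5.86) lay above the upper quartile, and Rb1 (5.35) and Trp53 (5.25) lay just above the median of all coding genes. Ccnd1 at 3.44 log2 CPM was the exception, since only 20.8% of coding genes had a weaker start region. Copy number can differ between chromosomes of a cell line, so each gene was also set beside the genes of its own chromosome, and its percentile moved by less than 6 points at every one of the 8 genes. Cdkn1a then stood at 94.5%, Cdk6 at 88.5% and Ccnd1 at 22.4%. Among genes with a CpG-rich start, whose median start level was 5.40 log2 CPM, the ranks were lower. Cdkn1a exceeded 93.6% of these, Cdk4 76.3%, Cdk6 76.0%, Cdkn1b 70.9% and Mdm2 69.5%, whereas Rb1 (48.0%) and Trp53 (43.8%) lay below the median and Ccnd1 exceeded 10.5%. These ranks use a single region per gene. Trp53 and Ccnd1 each had 3 regions within 1000 bp of their own starts, and Cdkn1b and Rb1 each had 2. The ranks do not sum them, so they understate a start whose signal is split, as at Trp53.

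**Figure D1:**
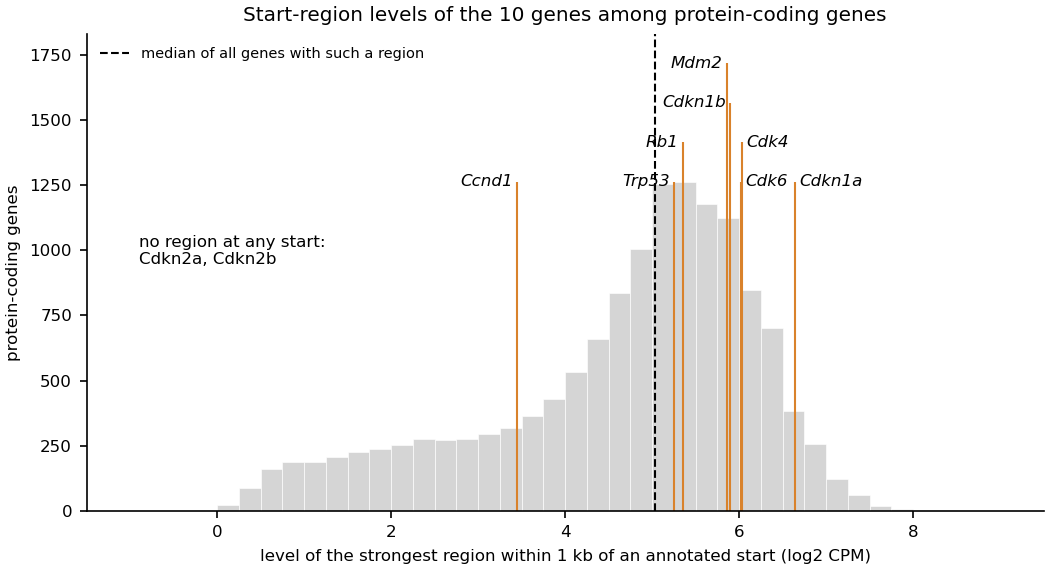
Level of the strongest region within 1 kb of an annotated start (log2 CPM) for all protein-coding genes that have one (grey bars, number of genes), with the 8 members that have one marked by orange lines and the median of all such genes by a dashed line. The line heights only separate the names. Ccnd1 at 3.44 lies left of the median of 5.03, the other 7 lie right of it, and Cdkn2a and Cdkn2b have no region to plot.

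Over all 42 regions the median level was 2.60 log2 CPM (range 0.52 to 6.64), against 2.12 for the whole list. A total of 15 lay within 1000 bp of an annotated start of any gene, or 35.7% (95% Wilson interval 23.0 to 50.8, counting error only), against 22.7% of all regions. Their median level was 5.04 log2 CPM, against 3.89 for all regions near starts. The 27 regions away from starts had a median of 2.33 log2 CPM, against 1.89 for all such regions. Wider regions hold more counts, so each region was also set beside all regions within 10% of its width. The start-proximal regions lay above the median of that set in 12 of 15 cases, by a median of 1.06 log2 units, and those away from starts in 10 of 27 cases, with a median difference of -0.13.

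**Figure D2:**
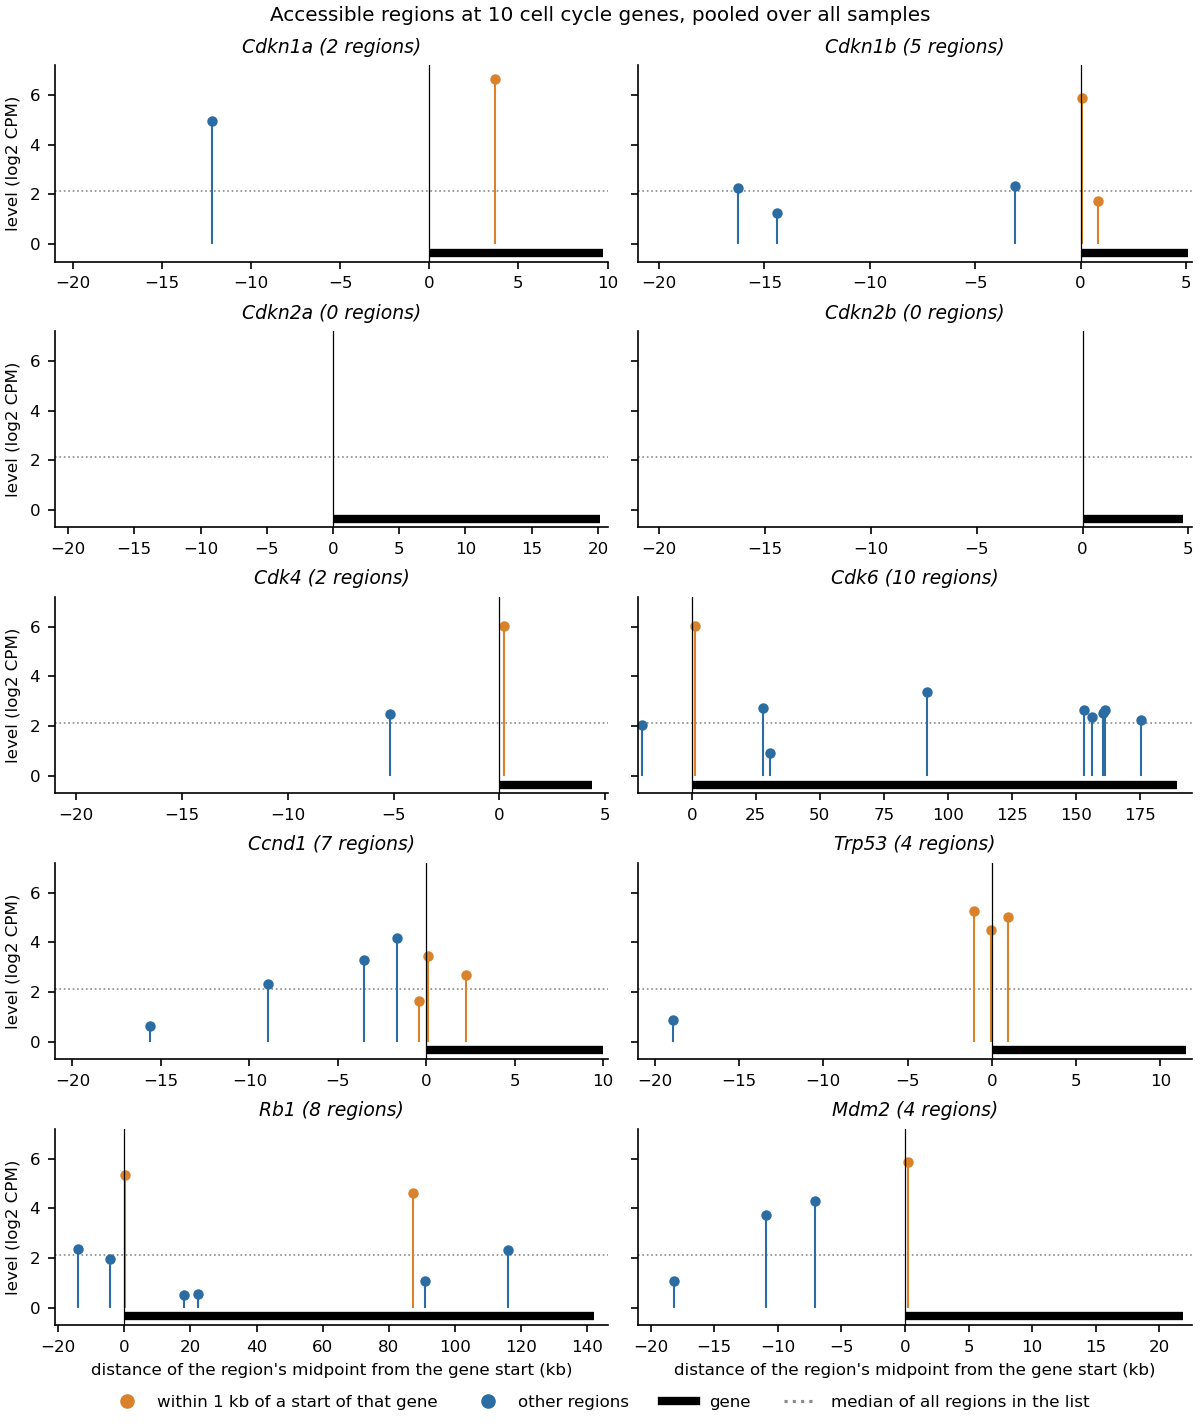
Level (log2 CPM) of each of the 42 regions against the distance of its midpoint from the outermost start of its gene (kb, negative upstream), 1 panel per gene; black bars are the genes, orange points are regions within 1 kb of a start of that gene, blue points all others, and the dotted line is the median of the whole list, 2.12. The tallest point of 7 genes is orange, in Ccnd1 the tallest lies upstream, and the panels of Cdkn2a and Cdkn2b are empty.

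Among the inhibitors, Cdkn1a (ENSMUSG00000023067.14, chr17:29090976-29100727, plus strand), the p21 gene, held the strongest of the 42 regions but a small number of them. It had 2 in a 29752-bp window, equal to the median of 2 at 7280 coding genes with windows of similar length (within 20%). The strong region, chr17:29093544-29095805, was 2262 bp wide and had a level of 6.64 log2 CPM, and its start-region width exceeded that of 98.6% of coding genes. It covered the starts of transcripts Cdkn1a-201 and Cdkn1a-205, which lie in intron 1 of the longest annotated form and begin with a 5′ UTR exon there. It also lay within 1000 bp of a start of the annotated gene AC167363.2, so it can be counted to either gene. Its sequence was 63.0% G+C with 170 CpGs, and held 5 Sp1 boxes and 3 AP-1 sites (TGACTCA or TGAGTCA) at 759, 1450 and 1794 bp downstream of the nearest start.

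The 2 outermost Cdkn1a starts, at 29090976 and 29090979, had no region within 1000 bp, nor had that of Cdkn1a-203 at 29097900, so 2 of the 5 annotated starts were covered. Around the outermost one the sequence was CpG-poor, at 47.2% G+C and an observed to expected CpG ratio of 0.13, whereas the start of Cdkn1a-201 had 58.3% and 0.62. The 150 bases before the inner start held 13 CpGs and those before the outer start 2. The other Cdkn1a region, chr17:29078168-29079466, lay 12.2 kb upstream with a level of 4.95 log2 CPM. It lay within 1000 bp of the start of Trp53cor1, the gene of the p53-induced noncoding RNA lincRNA-p21, so it can be counted to either gene.

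Cdkn1b (ENSMUSG00000003031.14, chr6:134920401-134925513, plus strand), the p27 gene, had 5 regions in its 25113-bp window, where similar windows had a median of 1 and 91.2% held fewer. The start region, chr6:134919939-134921036, covered both annotated starts and reached from the 5′ UTR into the coding part of exon 1. It had a level of 5.90 log2 CPM, above 93.6% of regions of its width of 1098 bp. A second, 206-bp region inside the coding sequence of exon 1, chr6:134921101-134921306, had 1.72 log2 CPM. The 3 upstream regions were weaker than the start region. A 247-bp one 3.1 kb upstream had 2.36 log2 CPM and exceeded 98.1% of regions of its width, and those 14.4 and 16.3 kb upstream had 1.26 and 2.27 log2 CPM and carried 1 and 2 AP-1 sites.

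Cdkn2a (ENSMUSG00000044303.6, chr4:89274471-89294653, minus strand) and Cdkn2b (ENSMUSG00000073802.5, chr4:89306299-89311039, minus strand) had no region in the list. For Cdkn2a, 15.5% of 5047 coding genes with similar windows likewise had none and the median was 3, and for Cdkn2b, 36.8% of 7601 had none and the median was 1. Few CpG-rich promoters were without a region. Of the 8406 coding genes with a CpG-rich start, 694 or 8.26% had no start region, and 279 or 3.32% had no region in the whole window, Cdkn2a and Cdkn2b among them.

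The p19ARF start of Cdkn2a, at 89294653, had 67.0% G+C and an observed to expected CpG ratio of 0.98 over the surrounding 1 kb. The 250 bases before its RefSeq start held 40 CpGs, more than 98.7% of the 32851 promoters in the RefSeq table, whose Mdm2 entry held 29 and Cdkn1b entry 28. The p16INK4a start at 89282192 was poorer, with 52.5% G+C, a ratio of 0.54 and 7 CpGs in 250 bases, and the Cdkn2b start had 58.2%, 0.74 and 12. The Cdkn2b promoter also held 1 CRE (TGACGTCA), which 1.55% of RefSeq promoters held. In the printed 150-base stretches the p19ARF start had 22 CpGs and the Mdm2 start, which lay in a region, 24.

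The stretch without regions was far longer than the pair of genes. It ran from chr4:88877126 to 89421737, 545 kb, against a median of 8161 bp between neighbouring regions over the list. It was delimited after the 2 genes were seen to lack regions, so its length is a description. It contained 14 annotated genes, of which Ifne, Mtap, Cdkn2a and Cdkn2b are protein-coding. Mtap encodes the methylthioadenosine phosphorylase of purine salvage, Ifne the interferon epsilon, and Mir31 and the noncoding Wincr1 also lay inside. The stretch extended 397 kb beyond the Cdkn2a end and 111 kb upstream of the Cdkn2b start.

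Accessible regions were dense directly outside it. The 100 kb on the Ifne side held 8 regions with levels up to 4.35 log2 CPM, and the 100 kb on the Cdkn2b side held 19, with a median of 2.84 and a highest level of 5.55 log2 CPM. The regions at its edges had 2.25 and 3.09 log2 CPM. Of 94942 intervals between neighbouring regions 538 were longer (0.567%), 33 of them on chromosome 4. Counting this one, 539 were at least as long, of which 463 held no CpG-rich coding start and 10 held at least 2. The median flank of 100 kb beside these 539 intervals held 2 regions. Besides this interval, 1 other had at least 8 regions in one flank and at least 19 in the other, on either side. Over intervals of any length, 75 held at least 2 CpG-rich coding starts, and some of the shorter ones held genes that nearly all cells use. The list had no region over chr11:120513465-120658898, with 9 CpG-rich starts that include Alyref, Anapc11 and P4hb, nor over chr9:44287704-44417637, with 7 that include Rps25 and Hyou1, nor over chr10:81162215-81203732, with Eef2. These 3 were picked after their genes were seen, and all are shorter than the 545-kb stretch. Why any of these stretches lacks regions was not tested.

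The stretch was close to its chromosome in repeat share and G+C content. Soft-masked repeats made up 34.4% of it and 34.5% of chromosome 4, and its G+C content was 41.3% against 42.3%. In the assembly 30400 of its 544612 bases are unknown, and no chromosome value was computed for that. Closed chromatin, sequence that the cells lack and rows not held in the list used here cannot be told apart at Cdkn2a and Cdkn2b.

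**Figure D3:**
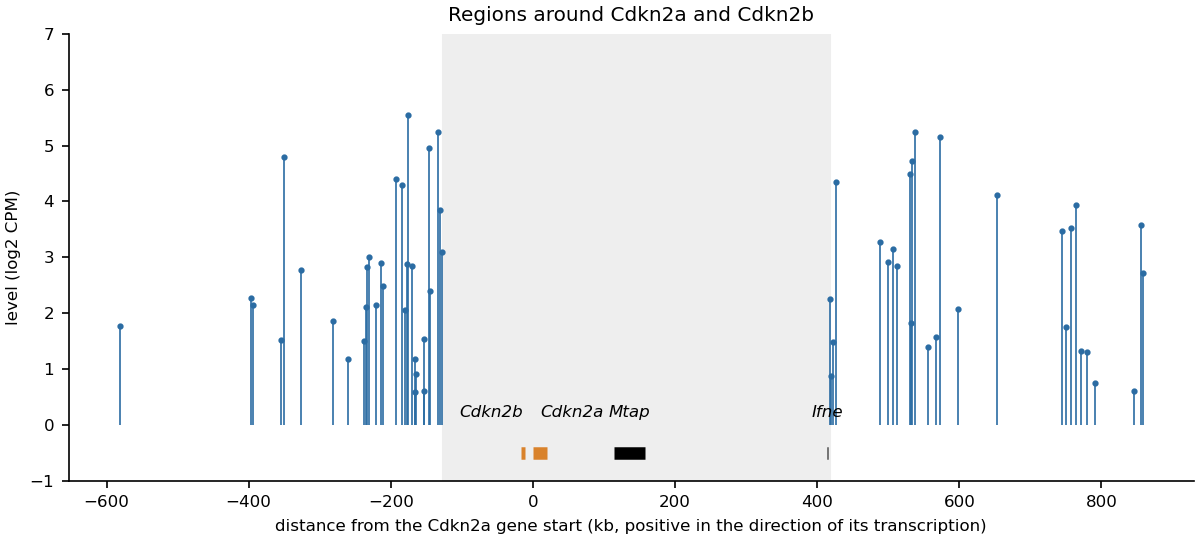
Level (log2 CPM) of all 58 regions in and within 500 kb of the stretch around Cdkn2a and Cdkn2b, against distance from the Cdkn2a start (kb, positive in its direction of transcription). Bars below the axis are the protein-coding genes inside the stretch, orange for Cdkn2a and Cdkn2b; the shaded 545 kb hold no point, and points reaching 5.55 and 4.35 stand within 100 kb of its edges.

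Both kinases had start regions above the upper quartile of level. Cdk4 (ENSMUSG00000006728.12, chr10:127063534-127067920, plus strand), partner of the D cyclins, had 2 regions in its window. The start region, chr10:127063073-127064391, was 1319 bp wide, reached 6.03 log2 CPM and spanned exons 1 and 2 with 8 of the 9 annotated starts. It held 4 E-boxes, the letters bound by Myc and Max, and all 4 lay upstream of the outermost start, at -169, -115, -95 and -8 bp. The last 3 stand in capitals in the Cdk4 sequence above. Of 4942 regions of similar width 0.142% held 4 or more, and in the 250 bases before a start 4 or more occurred in 7 of 32851 RefSeq promoters, while 6.02% held any. The cutoff of 4 is the count of Cdk4 itself, and these shares are given for this gene and motif alone. They are a description, not a test. The second region, 298 bp wide and 5.2 kb upstream, had 2.50 log2 CPM, above 97.0% of regions of its width.

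Cdk6 (ENSMUSG00000040274.11, chr5:3341485-3531008, plus strand), the other D-cyclin kinase, had 10 regions, the most of any of the 10 genes, in a 209524-bp window where similar windows had a median of 9. Its start region, chr5:3341116-3344688, was 3573 bp wide and wider than that of 99.99% of coding genes, and it covered 5 of the 6 annotated starts and exons 1 and 2. The level was 6.02 log2 CPM, and the sequence held 262 CpGs, 11 Sp1 boxes and 4 E-boxes. Another 8 regions lay in introns 2, 4, 5 and 6, with levels between 0.93 and 3.38 log2 CPM, and 4 of these stood together in intron 5, 153 to 161 kb from the start, at 2.36 to 2.66 log2 CPM. Of the 8 intronic regions 7 lay below the median level for their width. The last of the 10, chr5:3321848-3322397, lay 19.4 kb upstream with 2.06 log2 CPM, above 25.5% of regions of its width.

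Ccnd1 (ENSMUSG00000070348.5, chr7:144929931-144939925, minus strand), the cyclin D1 gene, was the only one of the 8 genes whose strongest region was not at one of its own starts. Its 7 regions in a 29995-bp window compared with a median of 2 in similar windows, of which 97.3% held fewer. They were narrow. The region over the outermost start, chr7:144939604-144940008, was 405 bp wide with 3.44 log2 CPM, where the median width over coding genes was 1134 bp and 8.07% had a narrower one. The strongest region lay 1.6 kb upstream, chr7:144941266-144941869, with 4.17 log2 CPM, and another lay 3.5 kb upstream with 3.31 log2 CPM.

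For their width the Ccnd1 regions near the gene were strong, since 5 of the 7 exceeded more than 94% of regions of similar width. These were a 298-bp region in intron 2 (2.68 log2 CPM, 98.0%), the region over the start (98.0%), a 229-bp region just upstream (1.66 log2 CPM, 94.5%), and those 1.6 kb (96.6%) and 3.5 kb upstream (97.3%). The G+C content of the 5 lay between 54.6% and 67.4%. The 2 regions farther out, at 9.0 and 15.6 kb, had 2.33 and 0.65 log2 CPM and were weak for their width, at 15.2% and 35.2%, and had 48.1% and 46.8% G+C. Summed over its 7 regions Ccnd1 came to 54.9 CPM over 2876 bp, less than the single Cdkn1a start region at 99.9 CPM over 2262 bp.

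**Figure D4:**
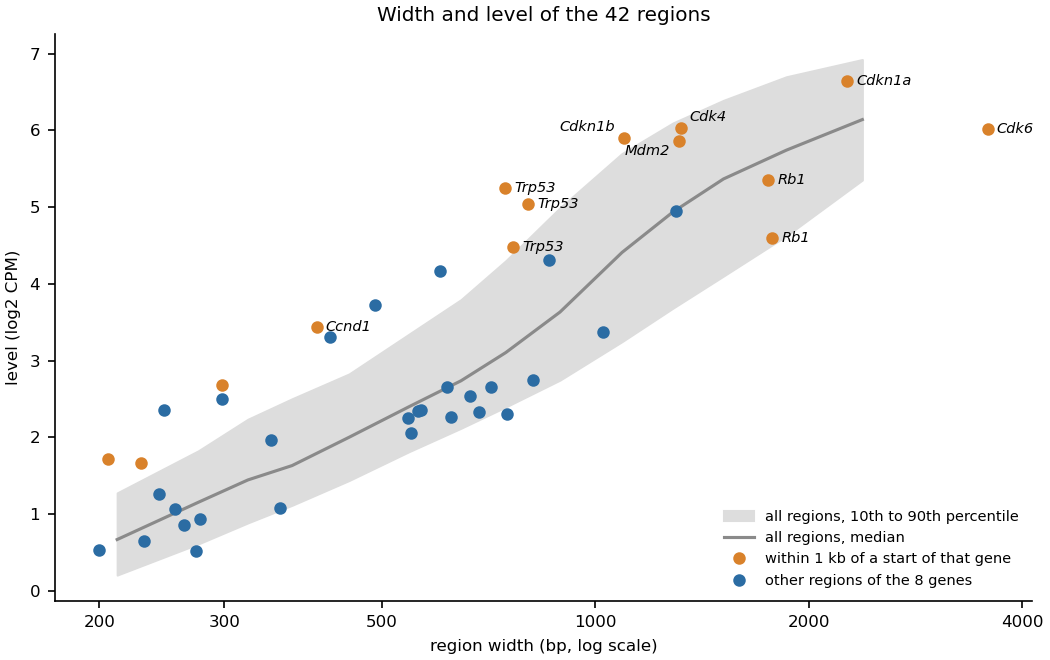
Level (log2 CPM) against width (bp, log scale) of the 42 regions, with those within 1 kb of a start of their gene in orange and all others in blue; the grey line and band are the median and the 10th to 90th percentile of all regions in bins of width. The 3 Trp53 start regions and the Ccnd1 region over the start lie above the band, the Rb1 start region at 5.35 lies below the line, and Cdk6 at 3573 bp stands beyond the last bin.

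Rb1 (ENSMUSG00000022105.6, chr14:73183673-73325822, minus strand), the retinoblastoma gene, had 8 regions, as many as the median of similar windows. Its start region, chr14:73324857-73326608, had a level of 5.35 log2 CPM over 1752 bp, with 202 CpGs and 10 Sp1 boxes in a sequence of 67.1% G+C. For that width the level was ordinary, higher than 39.4% of similar regions. In intron 17 a 1777-bp region, chr14:73237718-73239494, had 4.60 log2 CPM and was only 42.9% G+C. It lay within 1000 bp of the start of Lpar6, a lysophosphatidic acid receptor gene nested in that intron, and of the start of the noncoding transcript Rb1-206. The remaining 6 regions, 4 in introns 2, 17 and 20 and 2 upstream, had levels of 0.52 to 2.35 log2 CPM.

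Trp53 (ENSMUSG00000059552.13, chr11:69580359-69591873, plus strand), the p53 gene, lacked a CpG-rich start by the criterion used, with 51.9% G+C and a ratio of 0.55, and its start was surrounded by 3 separate regions. The first, chr11:69578924-69579670, lay upstream with 5.25 log2 CPM, the second, chr11:69579924-69580689, covered the start and exon 1 with 4.48, and the third, chr11:69580911-69581715, lay in intron 1 with 5.04. The 3 were 747, 766 and 805 bp wide, and they exceeded 98.4%, 91.5% and 95.5% of regions of similar width. All lay within 1000 bp of starts of both Trp53 and Wrap53, its divergent neighbour, so they cannot be assigned to either gene alone. The region over the start itself was thus the weakest of the 3, and another region 18.9 kb upstream had 0.86 log2 CPM.

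Mdm2 (ENSMUSG00000020184.15, chr10:117688875-117710758, minus strand), the p53 ligase, had 4 regions against a median of 3. Its start region, chr10:117709886-117711198, had 5.86 log2 CPM, was 1313 bp wide and covered 7 of the 8 annotated starts, among them those in intron 1, where the p53-driven promoter of the gene is known to lie. It held 3 Sp1 boxes and 1 AP-1 site. The p53 search described below found no pair in this region, even with 1 mismatch allowed, so that search does not show which regions p53 uses. A further 3 regions lay upstream. That at 7.1 kb, chr10:117717425-117718285, had 4.31 log2 CPM, and a 489-bp one at 10.9 kb, chr10:117721442-117721930, had 3.72 log2 CPM, above 97.7% of its width, and carried 2 AP-1 sites, at -10838 and -10856 bp. The farthest, 18.2 kb upstream, had 1.08 log2 CPM.

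Sites for p53 were searched as a pair of 10-base consensus half-sites up to 13 bp apart, each with purines, then C, A or T, and G, then pyrimidines. None of the 42 regions held a pair matching at every letter, and 0.181% of all regions did. At that frequency 42 regions cannot show a lack of sites, and 0 of 42 allows a share of up to 8.38% by the Wilson interval. The windows of the 10 genes held 3 full matches, at Cdkn1a, Ccnd1 and Cdk6, and none of the 3 lay in a region. That at Cdkn1a, chr17:29090906-29090937, lay 55 bp before the outer start, 2848 bp before the start of Cdkn1a-201 and 2606 bp from the nearest region.
Cdkn1a, full match, plus strand: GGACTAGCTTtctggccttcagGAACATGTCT
Ccnd1, full match, chr7:144954088-144954118, minus strand: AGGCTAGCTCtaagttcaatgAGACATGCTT

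The second half-site of the Cdkn1a match is also the first of an ungapped pair with 1 mismatch, chr17:29090928-29090947, and both are in capitals in the outer-start sequence above. The p53 site a few kilobases upstream of the p21 promoter is among the best known of its targets. With 1 mismatch allowed outside the fixed C and G of each half-site, 3 of the 42 regions held a pair (7.14%, Wilson interval 2.46 to 19.0). The share was 1.84% over all regions and 2.75% over regions of similar width, which lies inside that interval. The 3 were the Mdm2 region 7.1 kb upstream, the Cdkn1a region near Trp53cor1 and a 256-bp region of Rb1 intron 17. The first 2 are shown, with the half-sites in capitals.
Mdm2 upstream, chr10:117717736-117717755, minus strand: AAACATGTACAAACATGTCC
Cdkn1a upstream, chr17:29079039-29079058, plus strand: AGGCAAGCCCGGGCAAGGCC

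Sites of E2F (TTTCGCGC or TTTGGCGC on either strand) were in 0 of the 42 regions and 0.862% of all regions, and the CRE in 0 against 1.10%. The shorter E2F core (TCGCGC or TGGCGC) was in 15, or 35.7%, against 16.6% of all and 20.4% of regions of similar width. Sp1 boxes were in 15 regions (35.7%), 12 of them among the 15 near a start, against 58.7% of all regions near a start. The HRE core (ACGTG or GCGTG, which the E-box also contains), bound by hypoxia-inducible factors, was in 28 regions, 66.7%, against 51.0% at similar width. AP-1 sites were in 8 (19.0%, against 24.3%), E-boxes in 6 (14.3%, against 11.7%) and NF-Y boxes (CCAAT) in 19 (45.2%, against 51.6%). The counts are small and the Wilson intervals wide, with 51.6 to 79.0 for the HRE core, and all describe letters present in the regions, not binding. The intervals treat the 42 regions as independent, although they come from 8 genes, so they are not a test against the other regions.

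**Figure D5:**
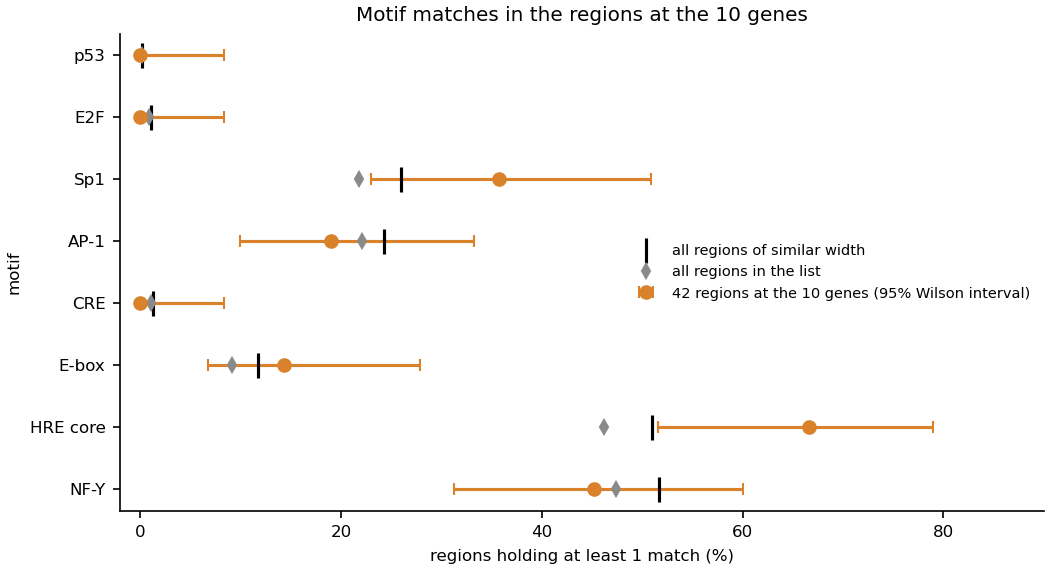
Share of regions holding at least 1 match of each motif (%): orange points are the 42 regions with 95% Wilson intervals, black ticks the regions of similar width, and grey diamonds the whole list. The intervals are wide and treat the 42 regions, which come from 8 genes, as independent. The p53, E2F and CRE motifs have 0 of 42, and the HRE core has 66.7% (interval 51.6 to 79.0) beside 51.0 at similar width.

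Other genes of the same pathways, 44 in all, are given for comparison. A start region was present at 43 of them, against 64.1% of all coding genes and 91.7% of those with a CpG-rich start, and the exception was Perp, a p53 target in cell adhesion. Each of the 44 had a region in its window, against 79.5% of all coding genes. The counts are thus near those of CpG-rich genes in general. Their median start level was 5.61 log2 CPM, and 29 lay above the coding median of 5.03. All 9 cyclins and kinases had one (median 5.69), as did all 11 pocket proteins and E2F genes (5.40) and all 7 p53 regulators (5.08), and 13 of 14 p53 targets (5.77). The highest were Sesn1, a stress-response gene, at 6.81, Ccne2, cyclin E2, at 6.62 and Gadd45a at 6.56 log2 CPM. The lowest were the proapoptotic Pmaip1 (Noxa) at 0.74, Cdkn1c (p57) at 0.97 and E2f2 at 3.33 log2 CPM.

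The other INK4 genes differed from the pair on chromosome 4. Cdkn2c (p18INK4c) and Cdkn2d (p19INK4d) had start regions at 6.07 and 6.12 log2 CPM, above those of Cdk4 and Cdk6. Of the 7 inhibitor genes of the INK4 and CIP/KIP families, 4 (Cdkn1a, Cdkn1b, Cdkn2c and Cdkn2d) had start regions between 5.90 and 6.64 log2 CPM, Cdkn1c had a weak one, and Cdkn2a and Cdkn2b had none.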

How the data were processed

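ATAC-seq libraries of MPC2 cells were available as 1 list of regions pooled over 11 samples. Per the study's methods, the authors trimmed reads with Trim Galore, aligned them to mm10 with Bowtie2, removed duplicates (Picard 2.17.8), called peaks (MACS2 2.2.7.1), merged them, removed blacklisted ones, counted cuts and normalized by TMM in edgeR 3.24.3. Regions without enough cuts in more than 1 sample had been dropped. The deposited values are log2 CPM, and the unit, as an average over the samples, was inferred from the values. They hold neither counts nor samples, so the read depth is unknown, and the planned edgeR comparisons of treatment and differentiation were not run. The 10 genes and the gene lists were chosen with earlier results of these data known. All 10 genes and every region of each were described, singly or by range, and of the other pathway genes those without a start region and the 3 highest and lowest. Overlaps, motif matches on both strands, percentiles and Wilson intervals (95%, counting error only) were computed in Python 3.11.15 with numpy 2.4.6, pandas 2.3.3 and scipy 1.17.1, after the searches were tested on simulated sequences and regions. The motif searches read the GRCm38.p6 assembly, and transcripts came from GENCODE M21. Alternatives varied the window, the region filter, the distance to a start and the motif definition. One marker gene is not reported here.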

Additional observations from a re-analysis of the deposited data

How the results depend on the processing

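Of 52 recomputed values, 44 stayed within 1.5 times the reported count or inside the interval of the reported share or median, and 8 moved. The 42 regions at the 10 genes became 68 with 50 kb upstream, 24 in the gene body alone and 25 when regions had to be at least 500 bp wide, which also raised the median level from 2.60 to 4.17 log2 CPM. These moves follow from the construction of the alternatives, which add or remove regions. The share near a start ranged from 29.7% with regions within 500 bp joined to 50.0% in the gene body. The number of genes with a start region stayed at 8, except for 7 with the width filter, which removed the narrow Ccnd1 regions, and that of the other pathway genes lay between 41 and 43. Regions with a p53 site rose from 0 to 1 with 50 kb upstream and to 3 with 1 mismatch, and regions with an E2F site from 0 to 1 with 50 kb upstream and to 15 with the 6-letter core. Cdkn2a and Cdkn2b lay inside the same empty stretch in every alternative with windows up to 50 kb. No paired analysis was possible because each region has 1 value pooled over all samples, so replicate numbers could not be used and no replicate could be left out. Without per-sample values or read depth, no level has an error, and why a region is missing from the list was not tested.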
